A study of Mus musculus with 2 samples.

Results

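The interferon-stimulated genes followed here are 43 genes that cells switch on after type I or type II interferon, taken by name from a fixed list. Of these, 42 were matched by symbol among the 27998 genes of the deposited matrices, and Mx2 was not analysed here. They are described across endothelial subtypes, alveolar type 2 (AT2) cells, fibroblasts and smooth muscle cells of mouse lung. Interferons bind receptors that signal through Jak kinases to transcription factors, which bind the interferon-stimulated response element or the gamma-activated site in the promoters of their target genes. The genes so induced encode proteins that block viral entry, translation and replication, GTPases that attack vacuoles of intracellular pathogens, subunits of the immunoproteasome and feedback regulators. Many of them are held at a low level in resting tissue, endothelium included.

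The study compared lung cells of C57BL/6J mice aged 10-12 weeks, 1 group labelled WT and the other KO. The series models HHT2, a hereditary disease of malformed vessels that mutations of ACVRL1, a BMP receptor of endothelial cells, cause in people. Cells of both groups were sorted as VE-cadherin positive and CD45 negative and counted with 10x Genomics 3' chemistry, 1 library per group. The deleted gene, the means and time of its deletion and the number of animals pooled are not given in the sources used here. With 1 library per group no test was possible, and every interval below covers counting error only.

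Filtering kept 2708 of 3482 WT and 1314 of 2196 KO barcodes, with median depths of 5423 and 8654 UMIs. The labels name the cells as endothelial, but 793 WT and 547 KO cells were AT2-like, with Sftpc, the surfactant gene of AT2 cells, at 182014 and 186386 counts per 1000000 UMIs (CPM) and Cdh5, which encodes VE-cadherin, at 9.003 and 4.02 CPM. The classes read here were general capillary (gCap-like, 706 WT and 202 KO cells), aerocyte (aCap-like, 393 and 67), Esm1-high endothelial (293 and 55), arterial-like (47 and 11), venous-like (47 and 13), AT2-like, fibroblast-like (125 and 84) and smooth muscle-like (91 and 61). A further endothelial cluster, led by Trp53i11, Apln, Peg3 and Slc39a14, held 128 KO and 5 WT cells and is called KO-only. Ptprc, which encodes CD45, had 0 UMIs in all of these classes except 2 UMIs in WT AT2-like cells. Acvrl1 was at 1316 (WT) and 1225 (KO) CPM in gCap-like cells and at 442 CPM in KO-only cells; which part of a gene was deleted is not given, so 3' reads do not check the label. In these classes 0 WT cells carried Y-linked transcripts without Xist, whereas KO cells were mixed (113 Y-linked alone and 3 Xist alone in gCap-like, 387 and 81 in AT2-like), so that sex and group cannot be told apart in capillary cells. The libraries shared 12 barcodes, and 3 cells of the classes carried one.

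The 6 promoter stretches below carry the response element core and belong to members that the results turn on. In the RefSeq windows (GRCm38.p6) from 250 bases before to 50 bases after each start, both strands were searched for GAAA, any 2 bases and GAAA again, the core of the interferon-stimulated response element, and TTCNNNGAA, the core of the gamma-activated site. A window was present for 34 members. The first motif lay in 19 of these 34 (55.9%), against 3.99% of all 27025 genes with a window and 32.4% of 71 other pathway genes. The second motif lay in 12 (35.3%), against 9.55% of all genes and 19.7% of the other pathway genes. Capitals mark matches of the first motif or its reverse complement, overlapping ones joined, and each stretch lies before the RefSeq start of its gene.
Ifitm2 (chr7:140955990-140956037, minus strand): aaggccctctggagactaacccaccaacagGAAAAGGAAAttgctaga
Bst2 (chr8:71537579-71537632, minus strand): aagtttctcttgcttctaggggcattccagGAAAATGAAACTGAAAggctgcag
Gbp7 (chr3:142530253-142530300, plus strand): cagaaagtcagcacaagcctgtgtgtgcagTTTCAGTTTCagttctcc
Isg15 (chr4:156200867-156200926, minus strand): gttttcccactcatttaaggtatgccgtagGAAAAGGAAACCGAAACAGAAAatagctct
Ifit1 (chr19:34640755-34640821, plus strand): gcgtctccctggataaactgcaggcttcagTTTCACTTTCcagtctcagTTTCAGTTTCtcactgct
Irgm1 (chr11:48871427-48871480, minus strand): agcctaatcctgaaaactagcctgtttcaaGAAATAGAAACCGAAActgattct
Isg15 held 3 overlapping matches, Bst2 and Irgm1 held 2 overlapping ones, Ifit1 held 2 that stood apart, and Ifitm2 and Gbp7 held 1 each. Of 8 inducible GTPases with a window, 7 held the response element core, and of 4 membrane and secreted members 3 did (Bst2, Ifitm2 and Ifitm3). Neither immunoproteasome gene held it, while Psmb8 held the gamma-activated core. A match describes these letters and shows no binding of a factor.

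With all members the summed module was highest in arterial-like and venous-like cells, then gCap-like cells, and lowest in AT2-like cells in both libraries, and the first step of this order rested on Ifitm2 and Ifitm3. It reached 6413 CPM in WT gCap-like cells (95% interval 6319 to 6508) and 7082 CPM in KO (6917 to 7249). Esm1-high cells stood near that level, at 6030.0 (WT) and 6473 (KO) CPM, and aCap-like cells at 3729 (WT) and 3563 (KO) CPM. Arterial-like cells held 9314 (WT) and 7863 (KO) CPM and venous-like cells 8164 (WT) and 7945 (KO) CPM, the KO values from 11 and 13 cells, and the KO arterial-like interval (7199 to 8572) overlapped the gCap-like one. Without Ifitm2 and Ifitm3 gCap-like cells held 3765 (WT) and 3838 (KO) CPM, arterial-like cells 3531 (WT) and 2956 (KO) CPM and venous-like cells 2642 (WT) and 2373 (KO) CPM, so that both vessel classes stood at or below the gCap-like level, and the WT arterial-like interval of the ratio (0.874 to 1.01) took in 1. With all members fibroblast-like cells stood at 3636 (WT) and 3411 (KO) CPM, smooth muscle-like cells at 2957 (WT) and 2131 (KO) CPM, and AT2-like cells at 779 (WT) and 421 (KO) CPM. In gCap-like cells 41.3% (WT) and 45.8% (KO) of the module came from Ifitm2 and Ifitm3, which encode membrane proteins that restrict virus entry, and in fibroblast-like cells 72.6% and 79.2%. Without these 2 genes fibroblast-like cells held 996 (WT) and 708 (KO) CPM, or 0.265 and 0.185 of the gCap-like level, against 0.567 and 0.482 with them. Smooth muscle-like cells likewise went from 0.461 and 0.301 of the gCap-like level to 0.249 and 0.108.

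**Figure D1:**
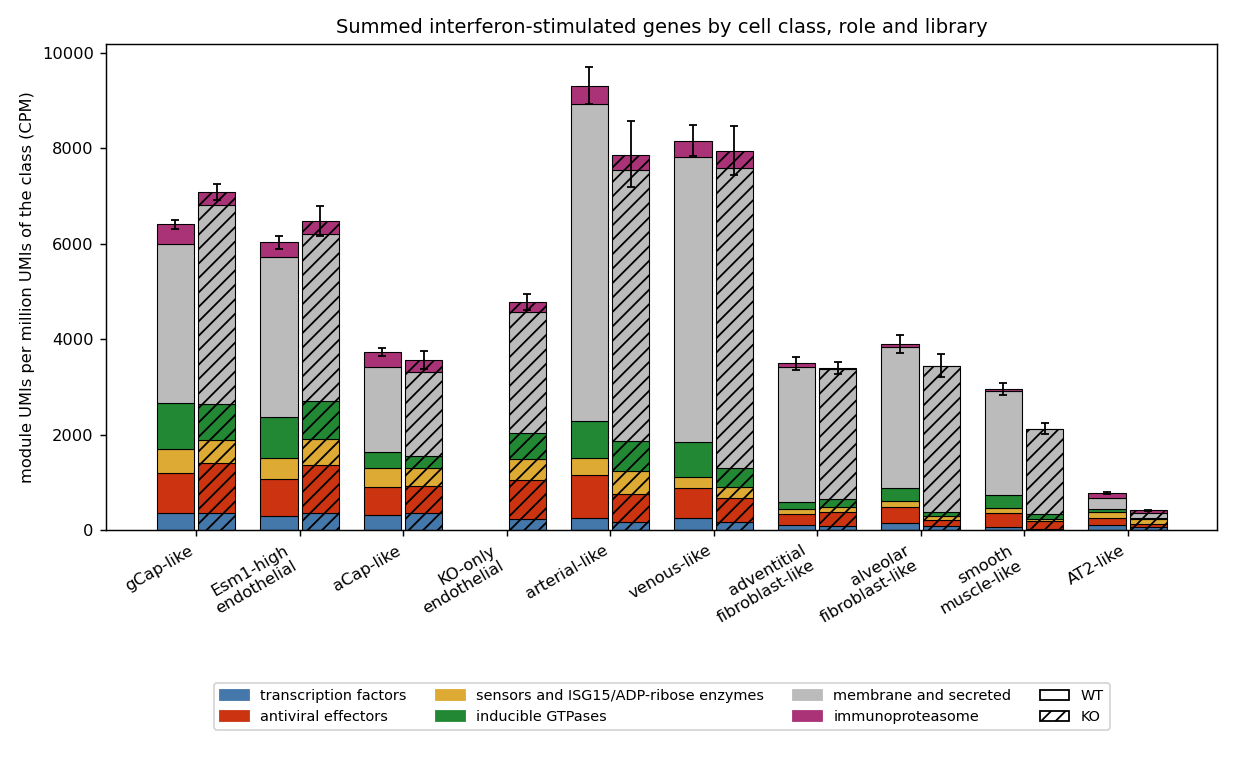
Summed UMIs of 42 interferon-stimulated genes per 1000000 UMIs (CPM) in each class, stacked by role, WT plain and KO hatched; whiskers are 95% Poisson intervals of the total. Endothelial classes hold 3563 to 9314 CPM and AT2-like cells 779 (WT) and 421 (KO) CPM; KO arterial-like and venous-like bars rest on 11 and 13 cells, and the KO-only class has no WT bar because it held 5 WT cells.

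aCap-like cells held less of several inducible GTPases and of Ifitm3 than gCap-like cells. A gene was counted higher or lower where the levels differed at least 1.5-fold with 95% intervals apart, among genes of at least 10 CPM in the mean of both sides. In aCap-like over gCap-like cells 16 of 37 members were lower in WT (12.3% of all genes tested) and 14 of 35 in KO (8.05% of all genes). The 11 lower in both were Isg15, Ifit1, Ifit3, Rsad2, Ifi44, Iigp1, Ifi47, Gbp2, Gbp3, Gbp7 and Ifitm3. Iigp1, an immunity-related GTPase, had 249.6 CPM in WT gCap-like and 22.8 in WT aCap-like cells, a 10.9-fold difference, and had 146 and 7.13 CPM in KO, where aCap-like cells held 3 UMIs of it. Gbp2, a guanylate-binding protein, was 6.05-fold (WT) and 5.85-fold (KO) higher in gCap-like cells, and Ifitm3 4.44-fold and 7.43-fold. Lgals3bp, a secreted glycoprotein, was the single member higher in WT aCap-like cells, at 195 against 111 CPM (11.4% of all genes were higher), and was not counted in KO (147 against 128 CPM). Irf1 alone was higher in KO aCap-like cells (7.65% of all genes).

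Most members were not counted as different between Esm1-high and gCap-like cells. In WT 5 of 36 members were lower (Ifit3, Rsad2, Igtp, Irgm1 and Ifi47), above the share of all genes (2.5%), and 0 were higher (2.35%). In KO 0 of 36 were counted in either direction (2.19% of all genes higher and 2.05% lower). The KO count rests on 55 Esm1-high cells with 244853 UMIs, against 293 cells with 1129347 UMIs in WT. WT arterial-like and venous-like cells held more Ifitm2 and Ifitm3 than WT gCap-like cells. Ifitm3 was 2.10-fold higher in arterial-like and 2.05-fold higher in venous-like cells, and Ifitm2 2.36-fold and 2.17-fold, where 7.07% and 8.49% of all genes were higher. Isg15, a ubiquitin-like modifier, was also higher in WT arterial-like cells, at 228 against 120.3 CPM. The members counted higher were 3 of 36 in arterial-like cells, near the share of all genes, and 2 of 37 in venous-like cells, below it. Of 36 members 5 were lower in WT arterial-like cells (7.76% of all genes) and of 37 members 9 were lower in WT venous-like cells (10.9%), Gbp7, Irgm1 and Parp14 in both. Lgals3bp was at 9.51 CPM in WT venous-like cells, from 3 UMIs, against 111 in gCap-like cells.

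Outside the endothelium nearly every member was lower than in gCap-like cells. In AT2-like cells 35 of 35 members were lower in each library, 34 of them in both, where 54.1% (WT) and 48.2% (KO) of all genes were lower and 16.3% and 15.8% higher. The median member was lower by 2.76 on the log2 scale in WT and 3.89 in KO, against medians of 0.70 and 0.68 lower over all genes. In fibroblast-like cells 33 of 37 (WT, 26.9% of all genes) and 31 of 36 (KO, 26.5%) were lower, and in smooth muscle-like cells 30 of 36 (23.5%) and 34 of 36 (23.4%). The single member higher in WT smooth muscle-like cells was Ifit2 (17.4% of all genes), and in KO 0 were (15.3%). Ifit2, of the IFIT family that restrains translation of viral RNA, went the other way. It stood at 8.31 and 8.04 CPM in WT and KO gCap-like cells and at 41.5 and 26.4 CPM in fibroblast-like cells, 4.99-fold and 3.28-fold higher, where 18.1% and 15.9% of all genes were higher. Its relative Ifit3 was lower in WT fibroblast-like cells, at 17.8 against 37.2 CPM.

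KO-only cells held 4782 CPM of the module against 6285 CPM in all other KO endothelial cells, a ratio of 0.761 (95% interval 0.732 to 0.791). Bst2 (454 against 702 CPM) and Lgals3bp (67.6 against 129 CPM) were lower, 2 of 37 members, which is below the share of all genes (8.25%). Ifit3 (53.5 against 23.8 CPM), Trim25 (121 against 72.5 CPM) and Gbp5 (29.6 against 5.95 CPM) were higher, 3 of 37 members, near the share of all genes (7.48%). Against KO gCap-like cells 7 of 37 members were lower (7.15% of all genes) and 2 higher, below the share of all genes (7.44%). Against all WT endothelial cells 8 of 37 were lower, among them Irf1, Iigp1, Psmb8 and Psmb9 (12.1% of all genes). Ifit3 and Gbp3 alone were higher, below the share of all genes (9.12%). Among KO-only cells those with Xist alone held 4369 CPM (61 cells) and those with Y-linked transcripts alone 5261 CPM (47 cells), a ratio of 0.830 that became 0.994 where at least 2 UMIs of the typing genes were asked for. Other KO capillary cells mostly had Y-linked transcripts alone: 113 against 3 with Xist alone in gCap-like, 45 against 8 in aCap-like and 37 against 0 in Esm1-high cells. The contrasts with other KO cells therefore differ in sex as well, and its part was not tested.

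The KO over WT contrast differed by role within gCap-like cells. Summed over all members the ratio was 1.104, 1.07 to 1.14, and without Ifitm2 and Ifitm3 it was 1.02, 0.982 to 1.06, an interval that includes 1; with cells assigned by marker UMIs alone the ratio over all members was 0.987. Antiviral effectors were at 854 (WT) and 1057 (KO) CPM (ratio 1.24, 1.15 to 1.33) and membrane and secreted members at 3329 (WT) and 4176 (KO) CPM (1.25, 1.21 to 1.301). The inducible GTPases went the other way, at 968 (WT) and 746 (KO) CPM (0.771, 0.7097 to 0.836), as did the 2 immunoproteasome subunits, at 413 (WT) and 266 (KO) CPM (0.645, 0.562 to 0.737). Transcription factors (0.996, 0.879 to 1.13) and sensors and modifying enzymes (0.978, 0.8795 to 1.09) had intervals that include 1. Of 37 members tested 1 was higher (1.55% of all genes) and 5 were lower (2.63% of all genes). The lower count was 2 at a 2-fold limit and 3 under a looser or a stricter cell filter, settings at which the share of all genes was not computed. The medians over members and over all genes were 0.11 and -0.02 on the log2 scale.

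**Figure D2:**
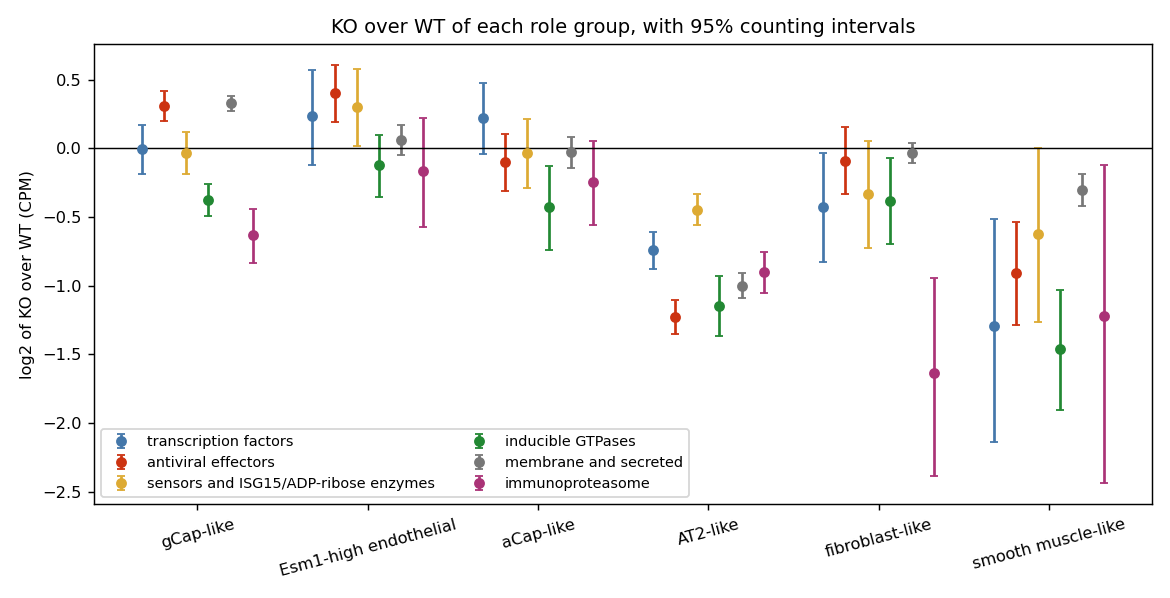
Log2 of KO over WT for the summed CPM of each role group in 6 classes, points with 95% counting intervals, 1 library per group. In gCap-like cells antiviral effectors and membrane proteins lie above 0 and GTPases and immunoproteasome subunits below it; in AT2-like cells all 6 groups lie below 0.

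aCap-like and Esm1-high cells showed few counted members. In aCap-like cells the summed ratio was 0.955, 0.903 to 1.01, with 0 of 33 members higher (1.86% of all genes) and 1 lower (1.98%), Ifi47. Its GTPases were at 336 (WT) and 249.7 (KO) CPM (0.743, 0.5998 to 0.913). In Esm1-high cells the summed ratio was 1.07, 1.02 to 1.13, with 2 of 37 members higher (1.94% of all genes), Oasl2 and Ifi44, and 0 lower (2.04%). Leaving out the 5 cells with the most module UMIs in each library turned that ratio to 0.917 and left 0 members higher; in the KO library those 5 of 55 cells held 28.5% of the class's module UMIs and 13.02% of all its UMIs. Antiviral effectors in Esm1-high cells were at 758 (WT) and 1001 (KO) CPM (1.32, 1.14 to 1.52) with all cells, and this sum was not recomputed without those 5 cells.

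AT2-like cells of the KO library held less of the module, 779 (WT) and 421 (KO) CPM (ratio 0.5404, 0.522 to 0.5596). All 20 members tested had a lower level in KO, and 14 were counted lower, where 2.3% of all genes were; 0 were higher (1.73% of all genes). The member median was lower by 0.81 on the log2 scale and that of all genes by 0.00. All 6 roles were lower in sum, with ratios from 0.427 for antiviral effectors to 0.734 for sensors and modifying enzymes. The count was 9 at a 2-fold limit and 6 with at least 20 CPM or with a stricter cell filter (1000 genes or more, mitochondrial share up to 5%). It was 26 with no minimum beyond 3 UMIs. The share of all genes was not computed at these settings. Fewer members are tested at 20 CPM, and more with no minimum beyond 3 UMIs. The summed ratio stayed between 0.502 and 0.606 in the 11 alternatives run. The counted members were Irf9, Stat2, Isg15, Xaf1, Eif2ak2, Rtp4, Parp14, Dtx3l, Irgm1, Bst2, Ifitm3, Lgals3bp, Psmb8 and Psmb9. Among them Isg15, Xaf1, Rtp4, Dtx3l, Irgm1, Lgals3bp and Psmb9 were under the CPM minimum in KO, from 6.07 (Rtp4) to 9.06 CPM (Lgals3bp). These members were tested because their WT level brought the mean of both libraries to that minimum, a rule used alike for all genes.

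The AT2-like difference was present in both clusters of the class, among Xist-alone cells and in cells with 0 endothelial UMIs. WT and KO levels were 710.4 and 400.3 CPM in the cluster led by Bex2, Lyz1 and Lyz2, and 931 and 441 CPM in the cluster led by Sfn, Ndnf and Cox6a2, which also had the alveolar type 1 markers Ager and Aqp5 among its top genes. Among KO cells, those with Xist alone held 429 CPM (81 cells) and those with Y-linked transcripts alone 418 CPM (387 cells). Xist-alone cells of both libraries compared with each other gave 779.6 and 429 CPM (ratio 0.5497, 0.509 to 0.593), with 12 of 19 members lower (7.86% of all genes tested) and 0 higher (5.94%). Markers of endothelial cells, 12 genes, were themselves lower in KO AT2-like cells, at 124 against 218 CPM in sum, which is 1.16% (WT) and 0.629% (KO) of their gCap-like level. The module stood at 12.1% and 5.94% of its gCap-like level. In AT2-like cells with 0 UMIs of the 12 endothelial markers the module was at 803 CPM in 43 WT cells and 403 CPM in 70 KO cells. Per member, in WT 25 of 37 members stood at a larger share of their gCap-like level than any of the 12 markers did, and in KO 14 of 36, the highest marker being Esam at 9.79% and 7.66%. Ifitm3 in KO AT2-like cells stood at 0.61% of its gCap-like level, close to the share of the summed markers, and at 3.02% in WT. The part of free RNA in the level of single members was not tested.

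**Figure D3:**
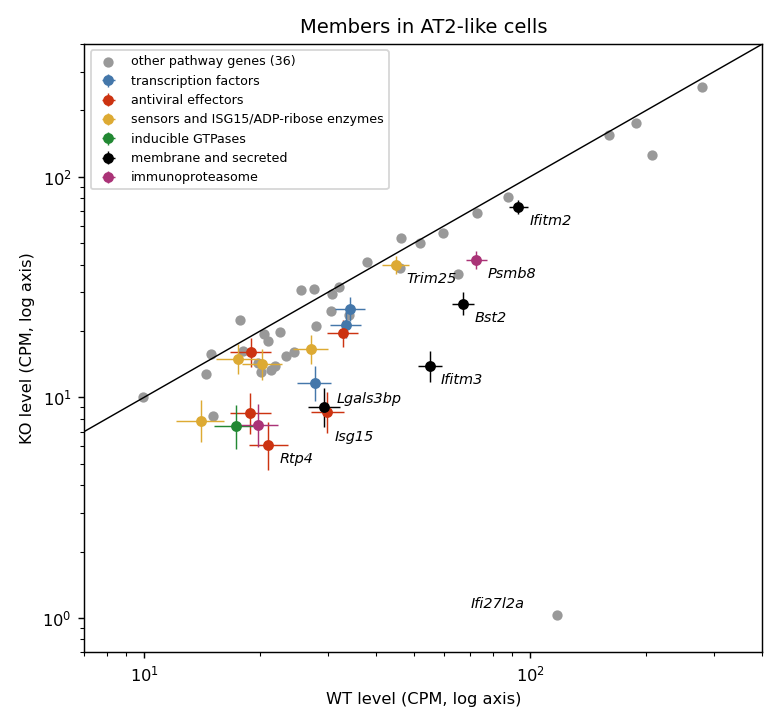
Levels in AT2-like cells of the 20 members of at least 10 CPM in the mean of both libraries. WT is on the x axis and KO on the y axis (CPM, log axes), coloured by role with 95% counting intervals. Grey points are 36 other interferon pathway genes and the line marks equal levels. All 20 members lie below the line, and Ifi27l2a lies farthest from it, with 118 (WT) and 1.03 (KO) CPM.

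Ifi27l2a, an interferon-induced gene outside the 43, showed a far larger difference in the same cells. It had 1648 UMIs in WT AT2-like cells (118 and 1.03 CPM; 0.00873-fold, 95% interval 0.00435 to 0.0157) and 11 in KO. In WT 221 of 793 cells carried a UMI of it, up to 169 in 1 cell, and in KO 8 of 547 cells did. gCap-like cells held 7.95 and 2.01 CPM. Among Xist-alone AT2-like cells its WT level was 109 and its KO level 2.36 CPM, and in cells with 0 endothelial UMIs at 100.8 and 2.53 CPM. Alveolar fibroblast-like cells showed a like difference, 298 and 4.16 CPM, the KO value from 1 UMI, while adventitial fibroblast-like cells held 153 and 132 CPM.

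Fibroblast-like cells were near equal in sum and lower in KO once Ifitm2 and Ifitm3 were set aside. The ratio was 0.938, 0.896 to 0.981 with them and 0.711, 0.646 to 0.781 without them. Of 30 members 5 were lower in KO (Irf1, Bst2, Lgals3bp, Psmb8 and Psmb9; 6.25% of all genes) and Oasl2 was higher (3.35%). Oasl2 was no longer counted without the 5 cells of most module UMIs in each library, which held 26.1% of the class's module UMIs in KO. The median over members was lower by 0.37 on the log2 scale. Without Ifitm2 and Ifitm3, alveolar fibroblast-like cells (60 WT and 35 KO) held 1185 (WT) and 486 (KO) CPM (0.4105, 0.333 to 0.503), and adventitial fibroblast-like cells (65 and 49) 896 (WT) and 779.6 (KO) CPM (0.8699, 0.778 to 0.973). Endothelial markers in fibroblast-like cells were at 699 CPM in WT and 300.3 in KO, 3.72% and 1.52% of their gCap-like level. KO cells with Xist alone held 2604 CPM (20 cells) and those with Y-linked transcripts alone 3551 CPM (46 cells), and the KO over WT ratio among Xist-alone cells was 0.716.

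Smooth muscle-like cells held less of the module in KO, 2957 (WT) and 2131 (KO) CPM (ratio 0.7205, 0.671 to 0.774), and 936 (WT) and 414 (KO) CPM without Ifitm2 and Ifitm3 (0.442, 0.38 to 0.514). Of 24 members 6 were lower (Irf1, Isg15, Ifit1, Iigp1, Bst2 and Lgals3bp; 3.61% of all genes) and 0 higher (2.31%). Their number rested on few cells: without the 5 cells of most module UMIs in each library 2 were counted lower, and Ifit1, at 3 (WT) and 0 (KO) UMIs, was left with no fold. Those 5 of 91 WT cells held 17.0% of the class's module UMIs and 5.28% of all its UMIs. With a looser cell filter (200 genes or more, mitochondrial share up to 20%) the summed ratio was 0.914 and 3 members were counted lower. The log2 ratios of Isg15, Ifit1 and Lgals3bp changed sign at that filter, to 0.74, 0.66 and 0.87, and no member was counted higher. The summed ratio was 0.918 at Leiden resolution 2. Endothelial markers stood at 405 CPM in WT and 245 in KO, 2.15% and 1.24% of their gCap-like level.

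**Figure D4:**
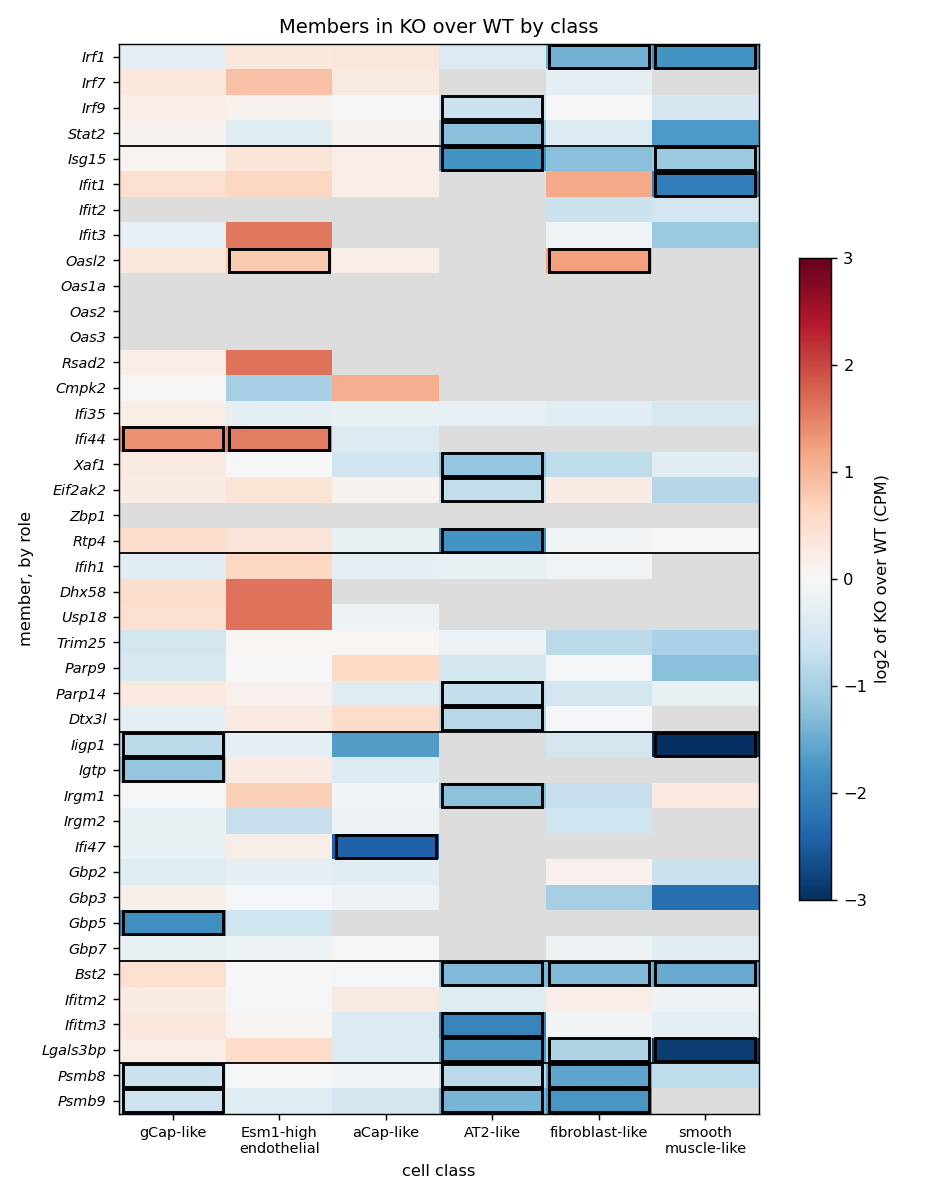
Log2 of KO over WT (CPM) for 42 members in 6 classes, ordered by role; grey cells are under 10 CPM in the mean of both libraries, levels of 0 are set to 3 UMIs, and black frames mark members counted higher or lower. In the AT2-like column 14 of 20 tested members are framed, all below 0, while the gCap-like column holds 5 lower and 1 higher.

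Members that passed the naming rule are given below as WT and then KO, by role; levels are CPM of the class and are not compared between genes. Among transcription factors, Irf1, an early factor of the interferon gamma response, stood at WT 162 and KO 133 CPM in gCap-like cells, 161 and 205 in aCap-like, 135 and 167 in Esm1-high, 126 and 107 in arterial-like and 117 and 90.01 in venous-like cells, 101 in KO-only cells, 34.2 and 25.2 in AT2-like, 34.9 and 10.1 in smooth muscle-like and 33.01 and 12.2 in fibroblast-like cells. It was counted lower in fibroblast-like and smooth muscle-like cells (12 and 6 UMIs in KO) and in no capillary class. Stat2, a transcription factor of type I interferon signalling, stood at WT 67.9 and KO 73.4 CPM in gCap-like cells, 57.7 and 61.8 in aCap-like, 62.9 and 49.01 in Esm1-high, 24.5 and 15.2 in arterial-like and 53.9 and 32.7 in venous-like cells, 40.9 in KO-only cells, 27.7 and 11.6 in AT2-like, 16.7 and 5.07 in smooth muscle-like and 29.6 and 22.3 in fibroblast-like cells. Its AT2-like level was lower in KO (0.419-fold, 95% interval 0.339 to 0.514). Irf7 and Irf9 ranged in KO gCap-like cells from 57.3 to 88.5 CPM, and Irf9 was lower in AT2-like cells.

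Among antiviral effectors, Isg15 stood at WT 120.3 and KO 128 CPM in gCap-like cells, 51.7 and 59.5 in aCap-like, 111 and 143 in Esm1-high, 228 and 76.2 in arterial-like and 127 and 57.3 in venous-like cells, 121 in KO-only cells, 29.9 and 8.59 in AT2-like, 72.8 and 33.8 in smooth muscle-like and 19.5 and 8.12 in fibroblast-like cells. Its capillary levels were close in both libraries, and its AT2-like level was lower in KO (0.288-fold, 95% interval 0.227 to 0.361). Ifit1, which binds the ends of viral RNA, stood at WT 82.7 and KO 116 CPM in gCap-like cells, 26.99 and 30.9 in aCap-like, 58.4 and 89.8 in Esm1-high, 44.9 and 91.4 in arterial-like and 34.9 and 24.5 in venous-like cells, 80.3 in KO-only cells, 4.07 and 0.2803 in AT2-like, 21.2 and 0 in smooth muscle-like and 11 and 24.3 in fibroblast-like cells. With 14 WT and 0 KO UMIs in smooth muscle-like cells it was 4.19-fold lower there when the KO level was set to 3 UMIs, which is not a bound. Without the 5 cells of most module UMIs in each library it had no fold, at 3 WT and 0 KO UMIs. With the looser cell filter its log2 ratio changed sign, to 0.66. In AT2-like cells Ifit1 had 57 WT and 3 KO UMIs, under 10 CPM in the mean and so not tested. Oasl2, of the oligoadenylate synthetase family, stood at WT 118 and KO 148 CPM in gCap-like cells, 82.4 and 95.1 in aCap-like, 102 and 176 in Esm1-high, 143 and 137 in arterial-like and 63.4 and 81.8 in venous-like cells, 98.6 in KO-only cells, 11.1 and 1.78 in AT2-like, 13.6 and 1.69 in smooth muscle-like and 16.1 and 37.5 in fibroblast-like cells. It was higher in KO in Esm1-high (1.72-fold, 95% interval 1.19 to 2.47) and fibroblast-like cells (2.33-fold, 95% interval 1.31 to 4.296), where adventitial cells held 11.7 and 48.3 CPM and alveolar cells 24.4 and 4.16. In AT2-like cells Oasl2 went the other way, with 155 WT and 19 KO UMIs. Its mean there was under 10 CPM, so it was not tested in that class. Ifi35 stood at WT 93.5 and KO 107 CPM in gCap-like cells, 131 and 114 in aCap-like, 116 and 93.9 in Esm1-high, 102 and 91.4 in arterial-like and 66.6 and 65.5 in venous-like cells, 76.1 in KO-only cells, 18.9 and 16.1 in AT2-like, 51.6 and 37.2 in smooth muscle-like and 44.9 and 35.5 in fibroblast-like cells. It was counted in no class. Ifi44, an interferon-induced cytoplasmic protein, stood at WT 28.5 and KO 74.4 CPM in gCap-like cells, 15.8 and 11.9 in aCap-like, 33.6 and 98.02 in Esm1-high, 48.9 and 0 in arterial-like and 19.03 and 73.6 in venous-like cells, 39.4 in KO-only cells, 2.14 and 0.841 in AT2-like, 3.03 and 0 in smooth muscle-like and 1.69 and 5.07 in fibroblast-like cells. It was the single member higher in KO gCap-like cells (2.61-fold, 95% interval 1.87 to 3.63), and was higher in Esm1-high cells as well. Xaf1, which antagonises inhibitors of apoptosis, stood at WT 128 and KO 156 CPM in gCap-like cells, 89.4 and 59.5 in aCap-like, 124 and 123 in Esm1-high, 106 and 45.7 in arterial-like and 111 and 40.9 in venous-like cells, 131 in KO-only cells, 18.9 and 8.501 in AT2-like, 27.3 and 21.96 in smooth muscle-like and 49.9 and 29.4 in fibroblast-like cells. Rtp4 stood at WT 103 and KO 148 CPM in gCap-like cells, 109 and 95.1 in aCap-like, 86.8 and 114 in Esm1-high, 110.1 and 91.4 in arterial-like and 111 and 73.6 in venous-like cells, 113 in KO-only cells, 21.01 and 6.07 in AT2-like, 12.1 and 11.8 in smooth muscle-like and 23.7 and 22.3 in fibroblast-like cells. Both were lower in KO AT2-like cells, Xaf1 at 0.451-fold, 95% interval 0.351 to 0.574 and Rtp4 at 0.289-fold, 95% interval 0.217 to 0.379. Of the rest, Eif2ak2, the kinase PKR, was lower in KO AT2-like cells, Ifit3, Rsad2 and Cmpk2 were counted in no class, and Ifit2, Oas1a, Oas2, Oas3 and Zbp1 stayed under 10 CPM in gCap-like cells. Ifit3, Rsad2 and Cmpk2 were under 10 CPM in AT2-like cells and so not tested there. Their AT2-like levels were 3.57, 1.07 and 5.36 CPM in WT and 0.467, 0.374 and 2.24 CPM in KO.

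Among sensors and modifying enzymes, Parp14, an ADP-ribose transferase, stood at WT 191 and KO 234 CPM in gCap-like cells, 157 and 121 in aCap-like, 196 and 212 in Esm1-high, 110.1 and 244 in arterial-like and 79.3 and 57.3 in venous-like cells, 149 in KO-only cells, 27.01 and 16.5 in AT2-like, 25.8 and 21.96 in smooth muscle-like and 38.9 and 26.4 in fibroblast-like cells. Its one counted difference was in AT2-like cells, 0.612-fold, 95% interval 0.509 to 0.734. Dtx3l, the ubiquitin ligase partner of Parp9, was also lower there, while Ifih1, Dhx58, Usp18, Trim25 and Parp9 were counted in no class. Dhx58 (1.93 WT and 1.03 KO CPM) and Usp18 (8.93 and 4.39) were under 10 CPM in AT2-like cells and so not tested there. Usp18, which removes Isg15 from proteins, stood at 24.6 and 34.2 CPM in gCap-like cells, and Ifih1, the RNA sensor MDA5, at 66.1 and 53.3 CPM.

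Among inducible GTPases, Iigp1 stood at WT 249.6 and KO 146 CPM in gCap-like cells, 22.8 and 7.13 in aCap-like, 265 and 216 in Esm1-high, 232 and 229 in arterial-like and 266 and 98.2 in venous-like cells, 100.0 in KO-only cells, 3.57 and 0.374 in AT2-like, 100.1 and 10.1 in smooth muscle-like and 51.6 and 35.5 in fibroblast-like cells. KO levels were lower in gCap-like cells (0.584-fold, 95% interval 0.485 to 0.699) and smooth muscle-like cells (0.101-fold, 95% interval 0.0359 to 0.232), while its intervals overlapped in Esm1-high cells. Igtp stood at WT 49.5 and KO 22.1 CPM in gCap-like cells, 37.2 and 28.5 in aCap-like, 27.4 and 32.7 in Esm1-high, 16.3 and 0 in arterial-like and 28.5 and 16.4 in venous-like cells, 15.5 in KO-only cells, 5.86 and 2.803 in AT2-like, 12.1 and 1.69 in smooth muscle-like and 8.46 and 6.09 in fibroblast-like cells. Gbp5 stood at WT 21.7 and KO 6.03 CPM in gCap-like cells, 0.931 and 0 in aCap-like, 18.6 and 12.3 in Esm1-high, 40.8 and 30.5 in arterial-like and 41.2 and 0 in venous-like cells, 29.6 in KO-only cells, 0.286 and 0 in AT2-like, 13.6 and 3.38 in smooth muscle-like and 2.54 and 1.01 in fibroblast-like cells. Both were lower in KO gCap-like cells, Igtp at 0.447-fold, 95% interval 0.271 to 0.704 and Gbp5 at 0.278-fold, 95% interval 0.0982 to 0.642, the last from 60 WT and 6 KO UMIs. Irgm1 stood at WT 75.8 and KO 73.4 CPM in gCap-like cells, 47.9 and 45.2 in aCap-like, 46.9 and 77.6 in Esm1-high, 32.6 and 45.7 in arterial-like and 22.2 and 32.7 in venous-like cells, 40.9 in KO-only cells, 17.3 and 7.38 in AT2-like, 15.2 and 18.6 in smooth muscle-like and 24.5 and 15.2 in fibroblast-like cells. It was lower in KO AT2-like cells alone among the classes of at least 50 cells. Ifi47 stood at WT 97.5 and KO 84.4 CPM in gCap-like cells, 64.2 and 11.9 in aCap-like, 57.6 and 65.3 in Esm1-high, 118 and 60.95 in arterial-like and 79.3 and 16.4 in venous-like cells, 33.8 in KO-only cells, 4.22 and 1.03 in AT2-like, 15.2 and 1.69 in smooth muscle-like and 5.93 and 6.09 in fibroblast-like cells. KO aCap-like cells held less of it, from 138 WT and 5 KO UMIs (0.185-fold, 95% interval 0.0592 to 0.443). Gbp7 stood at WT 269 and KO 235 CPM in gCap-like cells, 92.1 and 95.1 in aCap-like, 268 and 241 in Esm1-high, 159 and 168 in arterial-like and 111 and 65.5 in venous-like cells, 169 in KO-only cells, 5.79 and 4.02 in AT2-like, 42.5 and 33.8 in smooth muscle-like and 34.7 and 31.4 in fibroblast-like cells. It was counted in no class, nor were Irgm2, Gbp2 and Gbp3. Gbp7, Irgm2, Gbp2 and Gbp3 were under 10 CPM in AT2-like cells and so not tested there. In those cells Irgm2 was at 8.29 (WT) and 2.99 (KO) CPM, Gbp2 at 2.57 and 3.18 and Gbp3 at 1.93 and 0.747. Reads of the Gbp, Irgm and Ifitm families and of Igtp and Irgm2 can be shared between near-identical or overlapping copies, so single members of these are less certain than their sums.

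Among membrane and secreted members, Bst2 (tetherin), which holds budding virus at the cell surface, stood at WT 571 and KO 804 CPM in gCap-like cells, 538 and 518 in aCap-like, 615 and 621 in Esm1-high, 722 and 625 in arterial-like and 428 and 712 in venous-like cells, 454 in KO-only cells, 67.2 and 26.6 in AT2-like, 135 and 47.3 in smooth muscle-like and 135 and 53.8 in fibroblast-like cells. Its ratio was 1.41 in gCap-like cells, short of the 1.5-fold rule with intervals apart, and it was lower in KO AT2-like (0.396-fold, 95% interval 0.346 to 0.453), fibroblast-like (0.397-fold, 95% interval 0.285 to 0.545) and smooth muscle-like cells (0.351-fold, 95% interval 0.221 to 0.541). Ifitm2 stood at WT 825 and KO 964 CPM in gCap-like cells, 653 and 787 in aCap-like, 895 and 874 in Esm1-high, 1949 and 2164 in arterial-like and 1792 and 2128 in venous-like cells, 748 in KO-only cells, 93.3 and 72.96 in AT2-like, 608 and 549 in smooth muscle-like and 1030.2 and 1179 in fibroblast-like cells. It was counted in no class. In venous-like cells, 13 in KO, the level of Bst2 was higher and that of Iigp1 lower in KO. That class holds under 50 cells per library, and the share of all genes was not computed for its KO over WT contrast. Ifitm3 stood at WT 1823 and KO 2279.8 CPM in gCap-like cells, 411 and 307 in aCap-like, 1731 and 1842 in Esm1-high, 3833 and 2743 in arterial-like and 3729.7 and 3445 in venous-like cells, 1264 in KO-only cells, 55.1 and 13.8 in AT2-like, 1413 and 1168 in smooth muscle-like and 1610.0 and 1524 in fibroblast-like cells. KO AT2-like cells held less of it (0.251-fold, 95% interval 0.209 to 0.2996). Lgals3bp stood at WT 111 and KO 128 CPM in gCap-like cells, 195 and 147 in aCap-like, 111 and 163 in Esm1-high, 143 and 152 in arterial-like and 9.51 and 0 in venous-like cells, 67.6 in KO-only cells, 29.3 and 9.06 in AT2-like, 24.3 and 3.38 in smooth muscle-like and 93.1 and 49.7 in fibroblast-like cells. Its KO level was lower in fibroblast-like, AT2-like and smooth muscle-like cells, the last from 16 WT and 2 KO UMIs (0.139-fold, 95% interval 0.0155 to 0.592).

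The immunoproteasome subunits Psmb8 and Psmb9, which replace constitutive subunits and change the peptides made for antigen presentation, lie near each other on chromosome 17 in GRCm38 (34197721 to 34201454 and 34181987 to 34187764). Psmb8 stood at WT 234 and KO 149 CPM in gCap-like cells, 177 and 169 in aCap-like, 171 and 167 in Esm1-high, 245 and 229 in arterial-like and 199.8 and 262 in venous-like cells, 135 in KO-only cells, 72.6 and 41.9 in AT2-like, 28.8 and 16.9 in smooth muscle-like and 42.3 and 14.2 in fibroblast-like cells. Psmb9 stood at WT 179.5 and KO 118 CPM in gCap-like cells, 122 and 83.2 in aCap-like, 127 and 98.02 in Esm1-high, 130.5 and 76.2 in arterial-like and 146 and 90.01 in venous-like cells, 83.1 in KO-only cells, 19.7 and 7.47 in AT2-like, 10.6 and 0 in smooth muscle-like and 27.1 and 8.12 in fibroblast-like cells. Both were lower in KO gCap-like (0.637-fold, 95% interval 0.529 to 0.762, and 0.655-fold, 95% interval 0.531 to 0.803), AT2-like and fibroblast-like cells, with Psmb9 in gCap-like cells near the 1.5-fold limit.

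Other genes of the pathway were counted by the same rule. All 10 interferon ligands listed had 0 UMIs in gCap-like and AT2-like cells of both libraries. Of 51 other pathway genes tested in gCap-like cells 1 was lower in KO, Samhd1, and 0 were higher. In AT2-like cells 9 of 36 were lower, among them Ddx58, Socs3, Adar, Ifi27, Ifi27l2a and Lgals9, and 0 were higher. aCap-like cells had 3 of 49 lower (Samhd1, Sp100 and Parp12), Esm1-high cells 3 of 52 lower and 1 higher, fibroblast-like cells 3 of 43 lower and 4 higher, and smooth muscle-like cells 5 of 36 lower and 1 higher. The shares of all genes are those given above for each contrast.

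The type I receptor subunits were at 103 and 89.5 CPM (Ifnar1) and 142 and 153 CPM (Ifnar2) in gCap-like cells and at 17.7 and 22.5 and 46.02 and 38.6 CPM in AT2-like cells. Ifnar2 was lower in KO Esm1-high cells, at 197 and 98.02 CPM, and Ifnar1 in smooth muscle-like cells, at 51.6 and 20.3 CPM. The type II receptor subunits Ifngr1 and Ifngr2 were at 288 and 291 and 82.7 and 119 CPM in gCap-like cells, 37.9 and 41.1 and 25.4 and 30.7 in AT2-like and 482 and 549.8 and 38.9 and 59.9 in fibroblast-like cells. In AT2-like cells 0 of 5 receptors tested were counted. Ifnlr1, the receptor of interferon lambda, reached 10 and 7.66 CPM in AT2-like cells, and Il10rb, its partner, 52.02 and 49.98. Samhd1, which depletes the nucleotides that viruses need, stood at WT 135 and KO 77.4 CPM in gCap-like cells, 172 and 99.9 in aCap-like, 154 and 77.6 in Esm1-high, 89.7 and 137 in arterial-like and 124 and 57.3 in venous-like cells, 77.5 in KO-only cells, 30.4 and 24.6 in AT2-like, 48.5 and 62.5 in smooth muscle-like and 55.02 and 122 in fibroblast-like cells. It was lower in KO in the 3 capillary classes and higher in fibroblast-like cells. Socs3, a feedback inhibitor of Jak signalling, stood at WT 68.98 and KO 52.3 CPM in gCap-like cells, 29.8 and 28.5 in aCap-like, 79.7 and 24.5 in Esm1-high, 106 and 60.95 in arterial-like and 314 and 245 in venous-like cells, 52.1 in KO-only cells, 24.4 and 16.1 in AT2-like, 86.4 and 18.6 in smooth muscle-like and 47.4 and 86.2 in fibroblast-like cells. It was lower in KO Esm1-high, AT2-like and smooth muscle-like cells and higher in fibroblast-like cells.

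The variance of module UMIs per cell was above its mean in the 7 classes examined. Each cell was thinned to 1500 UMIs, at which a variance over mean of 1 is what counting error gives. It was 4.22 in WT and 3.67 in KO gCap-like cells, 2.56 and 2.27 in aCap-like, 3.27 and 6.32 in Esm1-high, 4.26 in KO-only, 2.02 and 1.25 in AT2-like, 1.78 and 2.08 in fibroblast-like and 3.86 and 1.51 in smooth muscle-like cells. WT gCap-like cells had a median of 8 module UMIs, from 1 at the 5th to 21 at the 95th percentile, and 7 of 656 had 0. KO gCap-like cells had a median of 9.5, from 2 to 21.45, and 2 of 192 had 0. In AT2-like cells 271 of 790 WT and 288 of 532 KO cells had 0, and the highest held 26 and 7. The KO Esm1-high value was 3.398 without the 5 cells of most module UMIs.

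**Figure D5:**
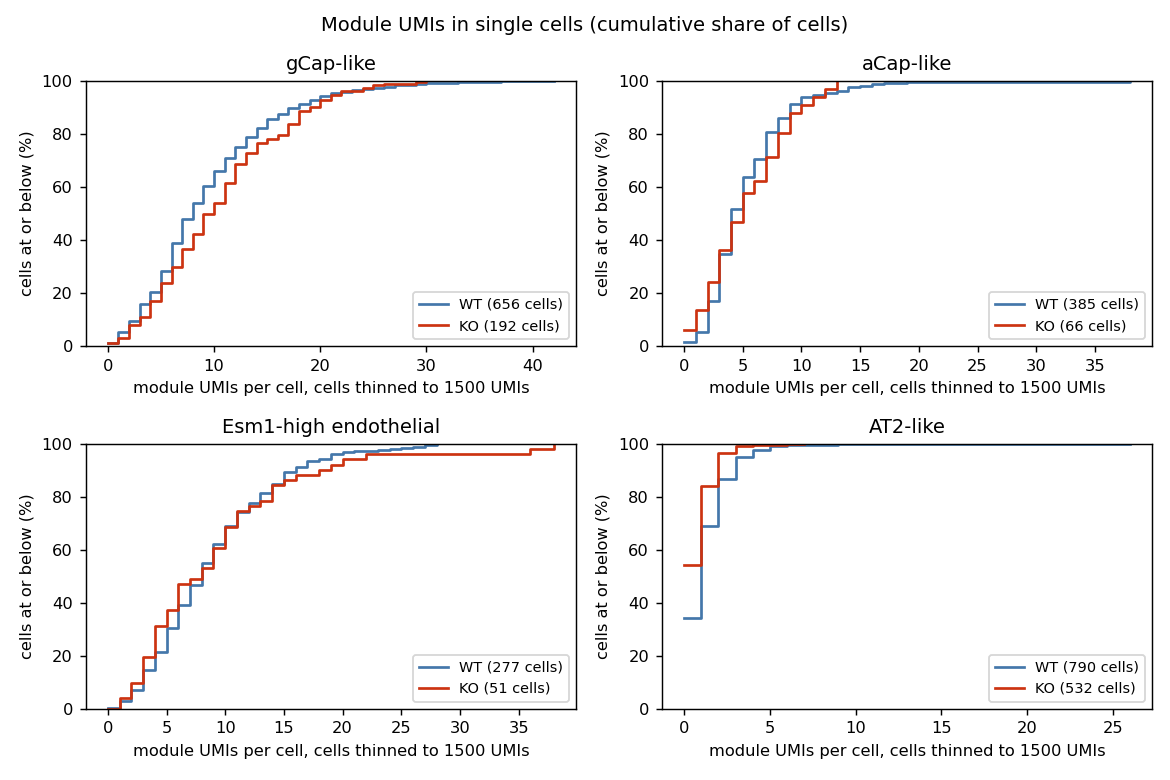
Share of cells (y axis, %) with at most a given number of module UMIs (x axis) after thinning each cell to 1500 UMIs, in 4 classes, WT blue and KO red. Medians are 8 (WT) and 9.5 (KO) UMIs in gCap-like cells, and in AT2-like cells 271 of 790 WT and 288 of 532 KO cells hold 0 module UMIs.

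The variance of the summed module was also set against the variances of its members. This measure and the variance over mean can both rise with the module's level, so they do not rank the classes. Thinned gCap-like cells held a mean of 9.31 (WT) and 10.5 (KO) module UMIs, and AT2-like cells 1.22 and 0.675. The standard deviation over the mean ran the other way, 0.673 and 0.591 in gCap-like and 1.28 and 1.36 in AT2-like cells. The variance of the sum was 2.55 (WT) and 2.26 (KO) times the sum of the members' own variances in gCap-like cells, 2.04 and 2.00 in aCap-like cells and 2.16 and 3.19 in Esm1-high cells, where members that vary independently would give 1. It was 2.55 in KO-only cells, 2.04 and 1.25 in smooth muscle-like cells, 1.80 and 1.23 in AT2-like cells and 1.24 and 1.28 in fibroblast-like cells, so that the higher values were not limited to endothelial classes. In WT gCap-like cells, 109 with at least 3 UMIs of antiviral effectors held 2.53 UMIs of GTPases per cell and 303 with none held 1.04. Immunoproteasome subunits were at 0.789 and 0.475 UMIs per cell and transcription factors at 0.899 and 0.406. Genes outside the pathway varied with the module as well. Over thinned gCap-like cells the 5 genes with the highest Spearman correlation with the module were Ubb (rho 0.455), Tmsb4x, H2-D1, Ramp2 and Itm2b (0.399) in 656 WT cells, among 2702 genes compared. They were Ly6a (rho 0.36), Tagln2, Tmsb4x, Id3 and Itm2b (0.352) in 192 KO cells, among 2647. The cells of each set share a library, so these are descriptions.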

How the data were processed

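Single-cell RNA of 1 WT and 1 KO library was measured. The counts of UMIs per gene and barcode are the authors' deposited matrices, for which the submitters' processing notes list Cell Ranger 3.0.1 and the mm10 build. From these, barcodes with 500 genes or more and a mitochondrial share up to 10% were kept, Scrublet removed 37 WT and 12 KO doublets, and cells were clustered with scanpy 1.11.5 (Leiden resolution 1) without the interferon genes and without genes differing between libraries. Classes were named from fixed markers; the naming rule, the splits of the Esm1 and mural clusters and the KO-only label were settled after seeing the clusters. The members and lists were chosen with earlier results of these data known. UMIs were summed per class and library as CPM, with exact Poisson 95% intervals and exact conditional binomial intervals for ratios. These cover counting error only. The counting steps were tested on simulated data. Values in every class are printed for members at 100 CPM or more in gCap-like cells, counted in 3 classes, or past 2-fold; of other pathway genes meeting this, those the text turns on are printed. The 8 members with no RefSeq promoter window are named only: Dhx58, Iigp1, Oas2, Parp14, Parp9, Rtp4, Usp18 and Zbp1. A result that needs a withheld item is not reported here.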

Additional observations from a re-analysis of the deposited data

Results flagged for a closer look

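Counting intervals of the KO over WT ratio lay above 1 in some classes and below 1 in others; the difference between classes was not tested, since each group is 1 library. For all members the ratio was 1.10 in gCap-like and 1.07 in Esm1-high cells, and 0.540 in AT2-like, 0.938 in fibroblast-like and 0.720 in smooth muscle-like cells. Antiviral effectors were at 1.24 in gCap-like and 1.32 in Esm1-high cells, and at 0.427 in AT2-like and 0.534 in smooth muscle-like cells. RNA sensors and modifying enzymes were at 1.23 in Esm1-high and 0.734 in AT2-like cells. Membrane and secreted members were at 1.25 in gCap-like, 0.5001 in AT2-like and 0.810 in smooth muscle-like cells.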

How the results depend on the processing

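No paired analysis was possible because each group is 1 library. Of 212 summed values and counts recomputed under another setting, 137 stayed and 75 moved, where a ratio stayed if it lay inside the 95% counting interval of the reported ratio, and a count or a per-cell variance over mean if it was within 1.5 times the reported one. Of 748 values of single genes, 695 kept their call or lack of one, 41 lost a call, 9 gained one and 3 changed sign. No fold was given where both libraries were at or under 3 UMIs, among them Ifit1 in smooth muscle-like cells (3 WT and 0 KO UMIs) without the 5 cells of most module UMIs. The fold was also left out where a level of 0, set to 3 UMIs, came out above that of the other library. Gbp5 in AT2-like cells with the looser filter (4 WT and 0 KO UMIs) was such a case. The alternatives on Xist-alone cells, cells with 0 endothelial UMIs and shared barcodes were chosen after seeing the data. Except for Xist-alone AT2-like cells, the share of all genes was not computed for counts under another setting, so those counts have no background. Leiden resolution 0.5 gave no separate gCap-like or Esm1-high class, and the strict filter and marker-only classes gave no Esm1-high class.

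With a stricter cell filter (1000 genes, 5% mitochondrial), the KO over WT ratio was 1.07 in gCap-like, 0.606 in AT2-like and 0.621 in smooth muscle-like. With a stricter cell filter (1000 genes, 5% mitochondrial), the count of members was 3 lower in gCap-like, 6 lower in AT2-like and 2 higher in fibroblast-like. With classes by marker UMIs alone, the KO over WT ratio was 0.987 in gCap-like and 0.8897 in fibroblast-like. Without Ifitm2 and Ifitm3, the KO over WT ratio was 1.02 in gCap-like, 0.711 in fibroblast-like and 0.442 in smooth muscle-like. Without Ifitm2 and Ifitm3, the module level was 0.708 for aCap-like over gCap-like in WT, 0.904 for Esm1-high over gCap-like in WT, 0.167 for AT2-like over gCap-like in WT, 0.265 for fibroblast-like over gCap-like in WT, 0.249 for smooth muscle-like over gCap-like in WT, 0.643 for aCap-like over gCap-like in KO, 0.979 for Esm1-high over gCap-like in KO, 0.08702 for AT2-like over gCap-like in KO, 0.185 for fibroblast-like over gCap-like in KO and 0.108 for smooth muscle-like over gCap-like in KO. Without Ifitm2 and Ifitm3, the per-cell variance over mean was 1.38 in fibroblast-like KO and 2.76 in smooth muscle-like KO. With a looser cell filter (200 genes, 20% mitochondrial), the KO over WT ratio was 0.958 in Esm1-high and 0.914 in smooth muscle-like. With a looser cell filter (200 genes, 20% mitochondrial), the count of members was 2 higher in gCap-like, 3 lower in gCap-like, 1 higher in Esm1-high, 1 lower in Esm1-high, 0 higher in fibroblast-like and 3 lower in smooth muscle-like. With a looser cell filter (200 genes, 20% mitochondrial), genes whose log2 KO over WT in smooth muscle-like cells changed sign were at 0.74 (Isg15), 0.66 (Ifit1) and 0.87 (Lgals3bp), and the cause was not tested. Without the 5 cells of most module UMIs in each library, the KO over WT ratio was 0.917 in Esm1-high and 0.873 in fibroblast-like. Without the 5 cells of most module UMIs in each library, the count of members was 0 higher in Esm1-high, 0 higher in fibroblast-like and 2 lower in smooth muscle-like. Without the 5 cells of most module UMIs in each library, the per-cell variance over mean was 3.398 in Esm1-high KO. At Leiden resolution 2, the KO over WT ratio was 1.01 in Esm1-high and 0.918 in smooth muscle-like. At Leiden resolution 0.5, the KO over WT ratio was 0.564 in AT2-like. With cells thinned to 1500 UMIs, the KO over WT ratio was 0.621 in smooth muscle-like. With cells thinned to 1500 UMIs, the module level was 0.131 for AT2-like over gCap-like in WT, 0.561 for smooth muscle-like over gCap-like in WT and 0.0642 for AT2-like over gCap-like in KO. Among Xist-alone cells, the KO over WT ratio was 0.716 in fibroblast-like. Among cells with 0 endothelial UMIs, the KO over WT ratio was 0.502 in AT2-like. At a 2-fold limit, the count of members was 2 lower in gCap-like, 1 higher in Esm1-high and 9 lower in AT2-like. With at least 20 CPM, the count of members was 6 lower in AT2-like. With no minimum beyond 3 UMIs, the count of members was 26 lower in AT2-like. With no minimum beyond 3 UMIs, the count of other pathway genes was 17 lower in AT2-like. With cells thinned to 3000 UMIs, the per-cell variance over mean was 6.83 in gCap-like WT, 5.18 in Esm1-high WT, 3.25 in AT2-like WT, 3.13 in fibroblast-like WT, 3.65 in fibroblast-like KO, 5.94 in smooth muscle-like WT, 2.49 in smooth muscle-like KO and 7.55 in KO-only KO. Without thinning, the per-cell variance over mean was 16.7 in gCap-like WT, 16.6 in gCap-like KO, 11.4 in aCap-like WT, 7.56 in aCap-like KO, 13.8 in Esm1-high WT, 21.5 in Esm1-high KO, 10.1 in AT2-like WT, 3.88 in AT2-like KO, 15.2 in fibroblast-like WT, 52.9 in fibroblast-like KO, 10.5 in smooth muscle-like WT, 12.5 in smooth muscle-like KO and 22.1 in KO-only KO. With at least 2 UMIs of the typing genes, the KO ratio of Xist-alone over Y-linked cells was 0.994 in KO-only and 0.666 in fibroblast-like.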
